A study of Mus musculus with 18 samples.

Results

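The T and NK cell genes examined here are 10 genes taken by name: Cd3d, Cd3e, Cd3g, Cd4, Cd8a, Lck, Nkg7, Gzma, Gzmb and Klrd1. All 10 are listed in both deposited count tables, among 46983 gene names. They were measured in bulk RNA of male C57BL/6J mice under a label of HFD, so every library shares that diet label. Adipose HFD+Gln had 5 libraries, adipose HFD had 4, marrow HFD+Gln had 5 and marrow HFD had 4. The glutamine arms carry Glutamine as both genotype and treatment, and the HFD arms carry genotype Ctrl and no treatment. Adipose titles carry mAT-MSC VAT and marrow titles carry mBMSC. The sources used here give no age, dose or route, and do not say whether the RNA came from whole tissue or from isolated or cultured cells. A library is named by its number pair, such as 1_3. The labels do not say what the pair counts or whether libraries came from separate animals, so p-values measure the spread between these libraries, which may be partly technical. In bulk RNA, fewer cells of a type and less RNA per cell cannot be told apart.

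A T cell recognises antigen through a receptor whose alpha and beta chains sit in a complex with the CD3 delta, epsilon and gamma chains, encoded by Cd3d, Cd3e and Cd3g. CD4 and CD8 are co-receptors that bring the kinase LCK to this complex, where it phosphorylates the CD3 tails. Cytotoxic T cells and NK cells store the proteases granzyme A and granzyme B in granules whose membrane holds NKG7, and CD94, the product of Klrd1, pairs with NKG2 proteins to form receptors for non-classical MHC class I. T and NK cells are a known minority of the cells in visceral fat and in marrow, and CD8 T cells are known to gather in the visceral fat of obese mice.

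The CD3 genes are neighbours, and their starts are shown because their counts parted from each other in the same libraries. Cd3d and Cd3g lie 1354 bases apart on opposite strands of chromosome 9, and Cd3e lies 11400 bases from Cd3d. RefSeq promoter windows of 300 bases follow, 5′ to 3′ on the gene's strand, with matches to 5 motifs in capitals, searched on both strands. The motif of ETS factors was spelled AGGAAG. The motif of RUNX factors was spelled TGTGGT. The E box of basic helix-loop-helix proteins was spelled CAGCTG. The motif of GATA factors was spelled AGATAA, and the TATA box was spelled TATAAA.
Cd3d (GRCm38.p6, chr9:44981536-44981835, plus strand): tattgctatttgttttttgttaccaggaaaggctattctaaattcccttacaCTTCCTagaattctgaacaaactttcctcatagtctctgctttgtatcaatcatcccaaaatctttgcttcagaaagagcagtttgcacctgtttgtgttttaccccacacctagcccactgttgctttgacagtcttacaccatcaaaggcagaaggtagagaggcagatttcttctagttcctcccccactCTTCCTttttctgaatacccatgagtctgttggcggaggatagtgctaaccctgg
Cd3g (GRCm38.p6, chr9:44980382-44980681, minus strand): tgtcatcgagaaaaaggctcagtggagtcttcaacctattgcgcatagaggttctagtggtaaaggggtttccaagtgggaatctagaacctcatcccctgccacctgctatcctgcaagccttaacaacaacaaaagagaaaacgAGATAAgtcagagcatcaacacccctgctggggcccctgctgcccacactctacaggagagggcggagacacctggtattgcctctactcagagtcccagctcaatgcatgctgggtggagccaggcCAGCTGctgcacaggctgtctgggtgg
Cd3e (GRCm38.p6, chr9:45009562-45009861, minus strand): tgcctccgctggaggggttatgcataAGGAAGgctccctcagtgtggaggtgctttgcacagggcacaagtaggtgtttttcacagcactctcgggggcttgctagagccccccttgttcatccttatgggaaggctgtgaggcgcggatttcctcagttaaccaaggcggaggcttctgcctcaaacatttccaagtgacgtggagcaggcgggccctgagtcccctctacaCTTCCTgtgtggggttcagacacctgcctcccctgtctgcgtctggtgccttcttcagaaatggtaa
Cd3d and Cd3e each held 2 matches to AGGAAG, and Cd3g held none of it but 1 match each to CAGCTG and AGATAA. RefSeq had 9 windows for 8 of the 10 members, with a pair for Lck and none for Cd4 or Klrd1. Of these 9, 5 held AGGAAG, against 35.4% of 32851 mouse windows of the same length. TGTGGT was in 4 of 9, against 16.8% of all windows, and CAGCTG was in 2 of 9, against 16.3%. AGATAA was in 1 of 9, against 11.2%, and TATAAA was in 0 of 9, against 13.6%. The matches are descriptions of letters and were not tied to the counts.

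Libraries were made with a kit that reads the 3′ end of transcripts, so counts do not scale with transcript length. Adipose libraries held 35871168 to 59529238 counts and marrow libraries 13970788 to 37984603. The number of genes with 100 or more counts was 11361 to 14469 in adipose and 1755 to 7323 in marrow. Of 10 stromal marker genes, all reached 100 counts somewhere in each tissue, and their summed level was 32545 to 49155 CPM (counts scaled to a library total of 1e6) in adipose and 66549 to 299959 CPM in marrow. Ptprc (CD45), carried by leukocytes in general, was between 55.0 and 306 CPM in adipose and between 0.652 and 267 CPM in marrow.

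The members together were a small share of each adipose library and were at a trace level in most marrow libraries. Their summed level was 26.8, 39.7 and 52.6 CPM (lowest, median and highest) in adipose HFD+Gln and 37.1, 59.0 and 143 CPM in adipose HFD. In marrow HFD+Gln the lowest, median and highest sums were 0.237, 0.358 and 80.2 CPM, and in marrow HFD they were 0.230, 0.267 and 0.395 CPM. The arms overlapped in both tissues. The 143 CPM belonged to adipose HFD 23_28, which also had the highest Ptprc level, and the 80.2 CPM belonged to marrow HFD+Gln 4_6, where 1 gene made up 99.7% of it. Between 4 and 7 members reached 100 counts in an adipose library, and at most 1 did in a marrow library.

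**Figure D1:**
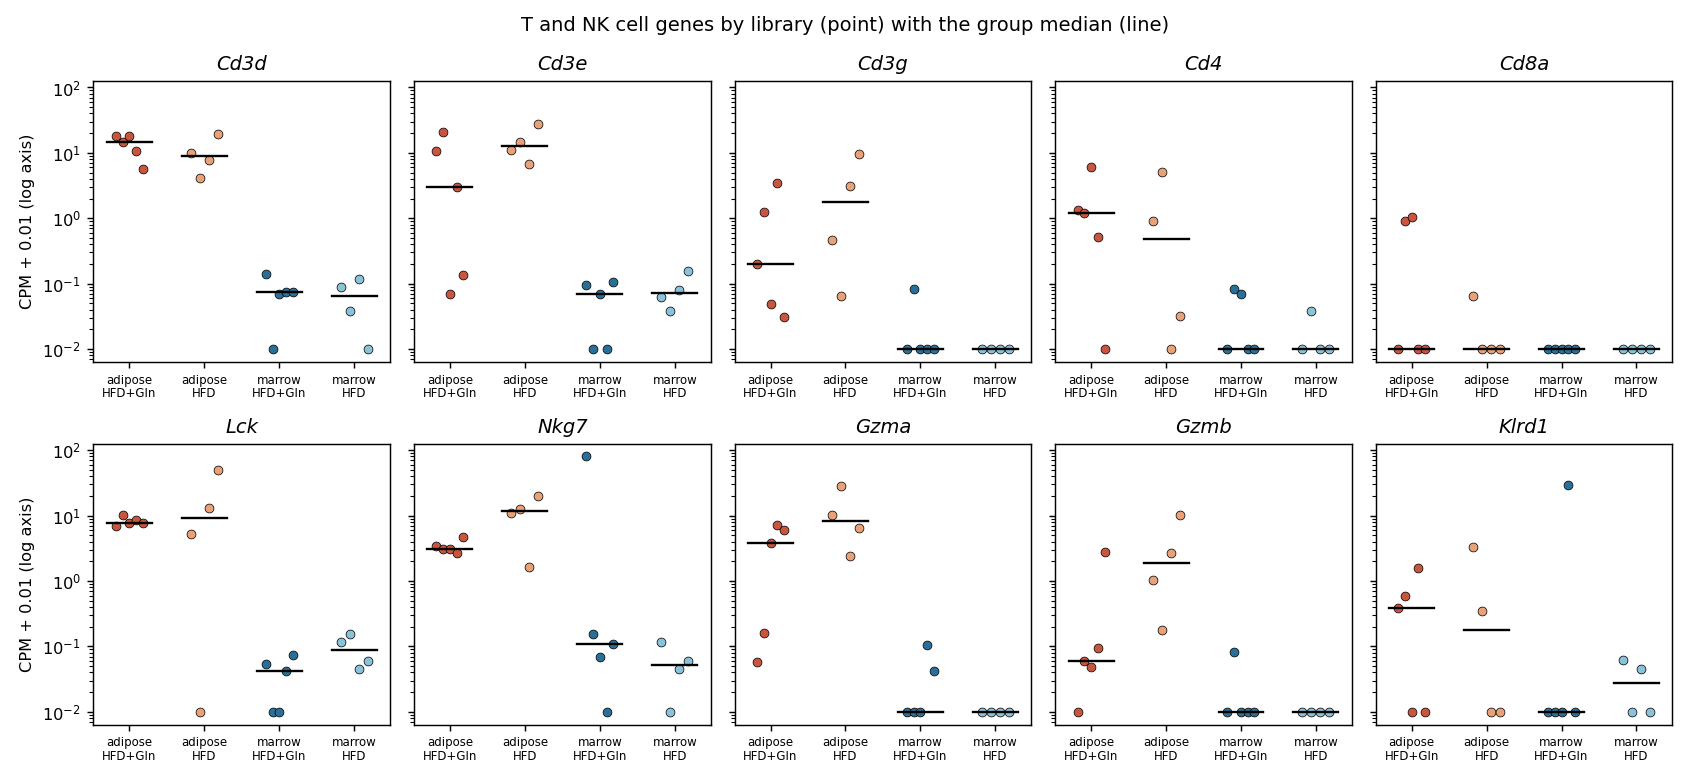
Level of each T and NK cell gene in each library (points) as CPM plus 0.01 on a log axis, with a line at the group median, for adipose HFD+Gln, adipose HFD, marrow HFD+Gln and marrow HFD. Cd3d lies between 4.15 and 19.2 CPM in all 9 adipose libraries, while single marrow HFD+Gln libraries reach 80.0 CPM for Nkg7 and 29.8 CPM for Klrd1.

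Cd3d was the steadiest member in adipose. Its counts were 755, 866, 912, 508 and 265 in adipose HFD+Gln libraries 4_6, 10_12, 13_15, 18_20 and 25_27, and 538, 149, 398 and 874 in adipose HFD libraries 1_3, 5_11, 14_17 and 23_28. Every adipose library therefore held over 100 counts of it, and the arms overlapped. It averaged 13.3 ± 5.25 CPM in adipose HFD+Gln (SD, n = 5) and 10.3 ± 6.45 CPM in adipose HFD (SD, n = 4). The fitted log2 fold change of glutamine was 0.36 ± 0.626 (SE), with an edgeR quasi-likelihood adjusted p of 1.00, and it was 0.10 without adipose HFD 5_11 and 0.86 without adipose HFD 23_28.

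Cd3e, whose product carries the signal inward with CD3 delta, was high in some adipose libraries and nearly missing from others. In the same library order its counts were 443, 1222, 3, 144 and 6 in adipose HFD+Gln and 595, 522, 346 and 1250 in adipose HFD. The libraries 13_15 and 25_27 of the glutamine arm were at 3 and 6 counts while their Cd3d counts were 912 and 265. The median was 3.00 CPM in adipose HFD+Gln and 12.8 CPM in adipose HFD, and the glutamine log2 fold change was −1.16 ± 1.19 (SE, adjusted p = 1.00 by edgeR). It was −0.68 without adipose HFD 23_28 and −2.13 without adipose HFD+Gln 10_12. An antisense gene, Gm48719, and Gm48720 overlap Cd3e, and the strand setting of the counting is not given, so reads of the overlap cannot be told apart.

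Cd3g, the gamma chain gene, had 8, 75, 2, 165 and 1 counts in adipose HFD+Gln and 25, 2, 161 and 430 counts in adipose HFD. Only 18_20 of the glutamine arm and 14_17 and 23_28 of the HFD arm passed 100 counts. The glutamine log2 fold change was −1.77 ± 1.74 (SE, adjusted p = 1.00), and it was −0.29 without adipose HFD 23_28 and −3.13 without adipose HFD+Gln 18_20. Cd3d made up 99.5% of the counts of the 3 chain genes in adipose HFD+Gln 13_15 and 22.1% in adipose HFD 5_11.

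**Figure D2:**
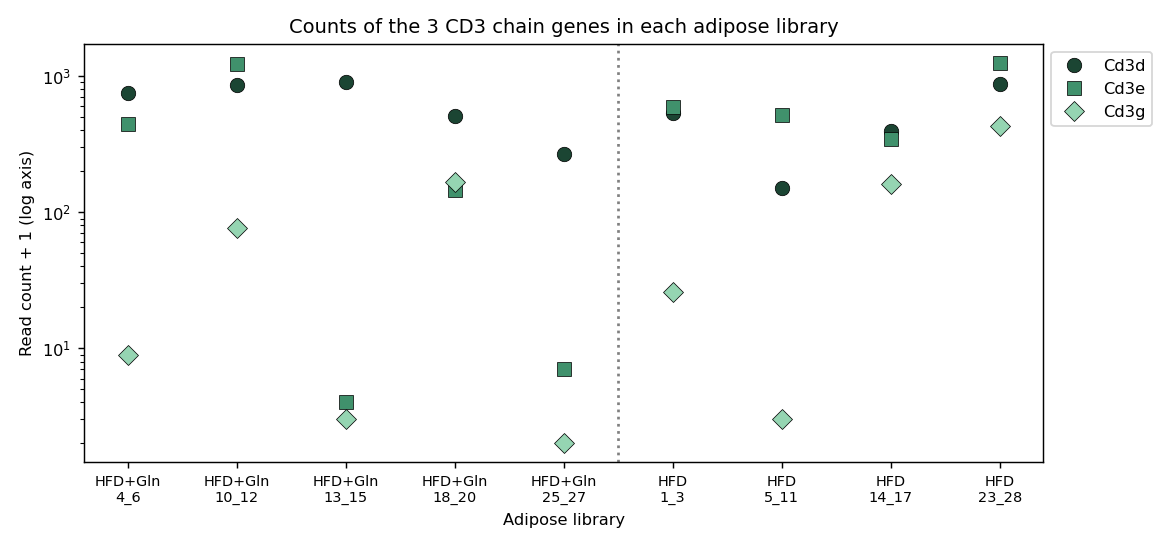
Read counts plus 1 of Cd3d, Cd3e and Cd3g on a log axis in each adipose library, with HFD+Gln on the left and HFD on the right of the dotted line. The genes do not keep 1 ratio: in HFD+Gln 13_15 Cd3d has 912 counts and Cd3e 3, while in HFD 5_11 Cd3d has 149 and Cd3e 522.

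The ratio of the highest to the lowest adipose library in CPM was 4.63 for Cd3d, 471 for Cd3e, 447 for Cd3g and 589 for Gzma. It was 9.84 for Trac, the receptor alpha constant region, 4.70 for Trbc2, a beta constant region, and 3.42 for Cd247, the zeta chain of the same complex. The SD of log2 CPM within arms was 0.798 for Cd3d and 1.08 for Nkg7, and 2.37 to 2.96 for the other 7 members that passed the count filter. Its median was 0.821 over all 15114 genes tested in adipose and 1.31 over the 4332 genes at a mean log2 CPM between 1 and 4. Of the members with wide spread, Cd3e, Lck and Gzma have their mean in that band and the others lie below it.

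The co-receptor genes were lower. Cd4 had 56, 72, 312, 24 and 0 counts in adipose HFD+Gln and 49, 182, 0 and 1 counts in adipose HFD. One library in each arm passed 100 counts, and each arm had a library at 0, which at 3 counts allows up to 0.0635 CPM in HFD+Gln 25_27 and 0.0581 CPM in HFD 14_17. The glutamine log2 fold change was 0.24 ± 1.97 (SE, adjusted p = 1.00), and −1.03 without adipose HFD+Gln 13_15, the library at 312 counts. Macrophages also carry CD4 in human and rat, so the gene does not mark T cells alone in those species.

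Cd8a had 0, 53, 54, 0 and 0 counts in adipose HFD+Gln and 3, 0, 0 and 0 counts in adipose HFD. Both libraries above 3 counts, 10_12 and 13_15, were of the glutamine arm, and the other 3 of that arm were at 0. It fell below the count filter and was not tested. Its partner chain Cd8b1 was at most 4.91 CPM in adipose HFD+Gln and at most 15.7 CPM in adipose HFD, with 1 library of each arm over 100 counts.

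Lck, the kinase that starts receptor signalling, had 288, 617, 395, 406 and 360 counts in adipose HFD+Gln and 281, 0, 668 and 2273 counts in adipose HFD. The glutamine arm lay between 6.87 and 10.4 CPM, inside the range of the HFD arm, which ran between 0 and 50.1 CPM. The library at 0, adipose HFD 5_11, held 522 counts of Cd3e and 1007 of Gzma, and 3 counts there would be 0.0836 CPM. The log2 fold change was −1.08 ± 1.12 (SE, adjusted p = 1.00), and it was 0.45 without adipose HFD 23_28, the library at 2273 counts. The microRNA gene Mir8119 lies within Lck on the same strand, and its reads cannot be told apart.

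Among the granule genes, Nkg7 was the member with the smallest unadjusted p. It had 145, 181, 157, 128 and 223 counts in adipose HFD+Gln and 590, 453, 85 and 910 counts in adipose HFD. The 5 glutamine libraries lay between 2.66 and 4.72 CPM, and 3 of the 4 HFD libraries lay above them, while HFD 14_17 lay below at 1.65 CPM. The log2 fold change was −1.77 ± 0.833 (SE), with an unadjusted edgeR p of 0.0520 and an adjusted p of 1.00.

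Gzma, granzyme A, had 2, 9, 197, 339 and 279 counts in adipose HFD+Gln and 545, 1007, 122 and 292 counts in adipose HFD. Libraries 4_6 and 10_12 of the glutamine arm were at 2 and 9 counts, and the other 3 of that arm overlapped with the HFD arm. Gzmb, granzyme B, had 0, 3, 2, 4 and 131 counts in adipose HFD+Gln and 56, 6, 137 and 465 counts in adipose HFD. The single high glutamine library of Gzmb, 25_27, lay within the HFD range, and the other 4 glutamine libraries lay below all 4 HFD libraries. The log2 fold changes were −1.84 ± 1.22 for Gzma and −2.60 ± 1.88 for Gzmb (SE, adjusted p = 1.00 each). Gzma was at −0.91 without adipose HFD 5_11. Gzmb was at −1.12 without adipose HFD 23_28, and it fell below the count filter without adipose HFD+Gln 25_27.

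Klrd1, the receptor gene, had 16, 35, 0, 75 and 0 counts in adipose HFD+Gln and 180, 12, 0 and 0 counts in adipose HFD. One adipose library, HFD 1_3, passed 100 counts, and libraries at 0 were in both arms. The log2 fold change was −0.89 ± 2.12 (SE, adjusted p = 1.00), and 2.10 without HFD 1_3.

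For the question of what glutamine changed in adipose under HFD, none of the 9 members tested passed an adjusted p of 0.05 in edgeR, and 0% of all 15114 genes tested were called. Before adjustment, 624 genes and no member had a p under 0.05, and DESeq2 called 31 genes and no member. The estimate was negative for 7 of 9 members, with a median of −1.16, against 51.4% negative and a median of −0.02 over all genes tested. No member had arms that did not overlap in CPM, against 1.66% of all genes tested. The members that passed the filter were chosen by their counts in these libraries, and their tally is a description with no test.

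**Figure D3:**
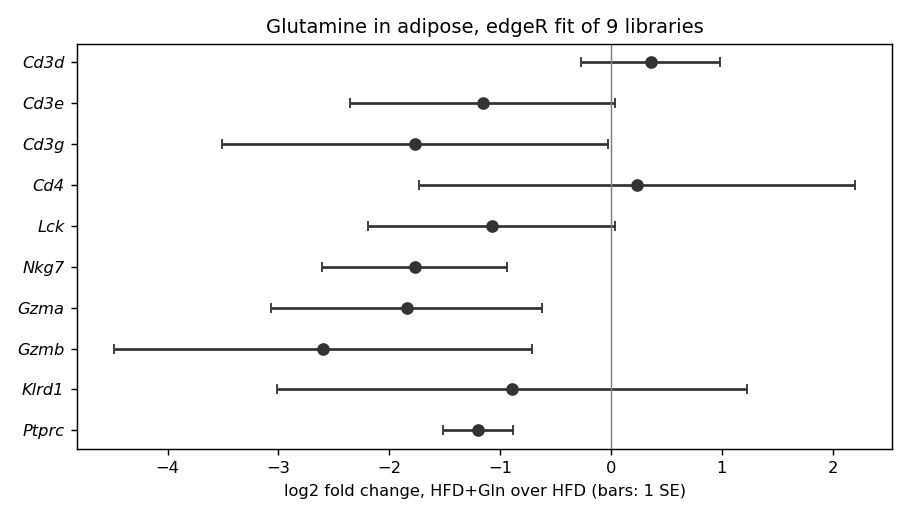
Fitted log2 fold change of HFD+Gln over HFD in adipose (points) with 1 SE on each side (bars), for the 9 T and NK cell genes tested and Ptprc. The estimates lie between −2.60 (Gzmb) and 0.36 (Cd3d), and none has an adjusted p under 0.05.

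Wider lists of T and NK cell genes also held mostly negative estimates, with no gene called. Over all such lists 67 of 82 genes tested had a negative estimate, with a median log2 fold change of −0.84, and without the members it was 60 of 73. Of the receptor complex and co-receptor list, which holds 5 members, 13 of 14 genes were tested and 11 were negative, with a median of −0.64. Of the receptor chains, Trac was at −0.64 ± 0.578, Trbc2 at −0.05 ± 0.529 and Cd247 at −0.23 ± 0.470 (log2, SE). Receptor signalling genes, the member Lck among them, had 11 of 13 negative with a median of −1.08. Fyn, the most abundant of them and active in many cell types, was at −0.03 ± 0.212.

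Cytotoxic granule genes had 9 of 9 negative with a median of −1.49, including Ccl5, a chemokine of activated T cells, at −1.49 ± 0.551 (unadjusted p = 0.0172). The members Nkg7, Gzma and Gzmb belong to this granule list and were among its 9 tested genes, so its tally is not independent of theirs. Prf1 and Gzmk, encoding perforin and granzyme K, were below the filter. Prf1 was at 319 counts in 1 glutamine library, at 3 counts in 1 HFD library and at 0 in the other 7. NK receptor genes, the member Klrd1 among them, had 9 of 13 negative with a median of −0.67. Ncr1 encodes the NK receptor NKp46. It was at 316 counts in 1 adipose HFD+Gln library, at 1 count in 1 HFD library and at 0 in the others. Homing and survival genes had 13 of 14 negative with a median of −1.13, including Il7r, the interleukin-7 receptor, at −1.19 ± 0.343 (unadjusted p = 0.00397). Transcription factor genes had 7 of 11 negative with a median of −0.34, and genes of regulatory T cells and ILC2 had 7 of 9 negative with a median of −0.51. Tyrobp, an adaptor of NK cells and macrophages, was at −0.93 ± 0.353, and the adjusted p of every gene of these lists was 1.00.

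Some lists of other leukocytes also held mostly negative estimates. Ptprc was at 55.0 to 88.5 CPM in adipose HFD+Gln and 86.9 to 306 CPM in adipose HFD, with a log2 fold change of −1.20 ± 0.314 (unadjusted p = 0.00199, adjusted p = 1.00 by edgeR). The 9 common leukocyte genes were all negative with a median of −0.87, and all 9 reached 100 counts in every adipose library. Their summed level was 275 to 547.5 CPM in HFD+Gln and 548.2 to 1151 CPM in HFD, so the arms nearly met but did not overlap. Ptprc alone did overlap. Among single genes tested in adipose, 1.66% had arms that did not overlap, and no such share was taken for sums of genes. Macrophage genes had 11 of 12 negative with a median of −0.97, and sums of 340 to 754 CPM in HFD+Gln and 557 to 1675 CPM in HFD. B and plasma cell genes had 7 of 8 negative with a median of −0.58, and sums of 233 to 1318 CPM in HFD+Gln and 609 to 3896 CPM in HFD, with Cd79a at or below 3 counts in every adipose library. Dendritic cell genes had 5 of 9 negative, neutrophil genes 5 of 8, mast cell and basophil genes 1 of 5 with a median of 0.11, and stromal genes 4 of 10 with a median of 0.10. Their part in the values of the T and NK cell genes was not tested. Counts of the members per count of Ptprc were 0.303, 0.576 and 0.719 (lowest, median, highest) in adipose HFD+Gln and 0.307, 0.411 and 0.748 in adipose HFD, and the arms overlapped.

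**Figure D4:**
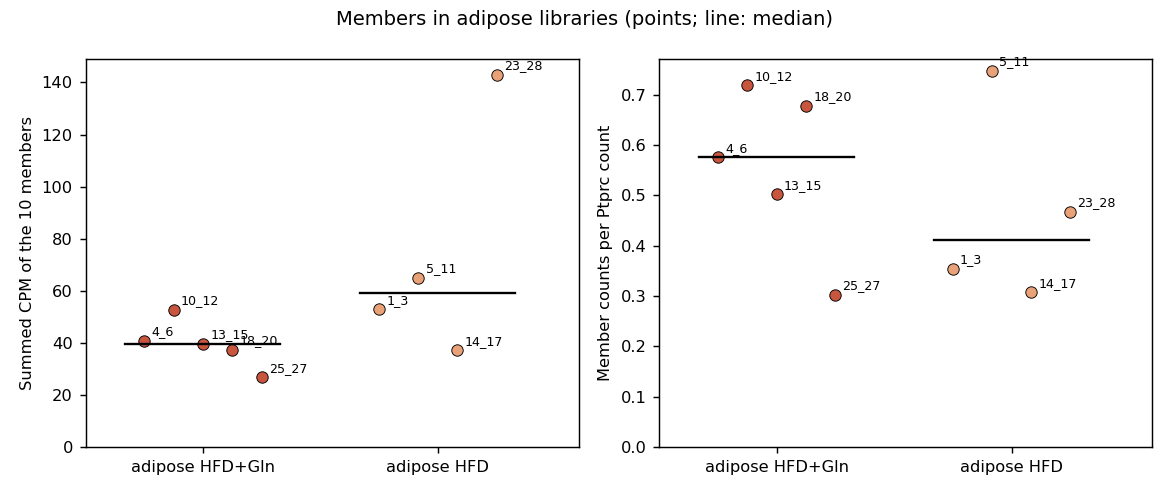
Summed level of the 10 T and NK cell genes in CPM (left panel) and their counts per count of Ptprc (right panel) in each adipose library (points, with number pairs) and the median of each arm (lines). The summed level is highest in HFD 23_28 at 143 CPM, and the counts per Ptprc count run between 0.303 and 0.748 with the arms interleaved.

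The genes whose pattern over the 9 adipose libraries was most like the mean of the tested members, outside the T and NK lists and at a mean log2 CPM of at least 1, were Vim, Cxcr4, Kdelr2, Rcc2, Rpl27, Sdcbp, Max and H3f3b. Pearson's r was 0.972 for Vim and 0.963 for Cxcr4, a chemokine receptor gene of leukocytes among other cells, and between 0.937 and 0.949 for the other 6. These values are over 9 libraries that share depth and makeup, and are a description.

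In marrow 8 of the 10 members had 5 counts or fewer in every library. Cd3d had 3, 0, 1, 2 and 2 counts in marrow HFD+Gln libraries 4_6, 10_12, unnumbered, 18_20 and 25_27, and 3, 1, 3 and 0 counts in marrow HFD. Cd3e had 2, 0, 1, 0 and 3 counts in marrow HFD+Gln and 2, 1, 2 and 3 counts in marrow HFD. Lck had 1, 0, 0, 1 and 2 counts in marrow HFD+Gln and 4, 5, 1 and 1 counts in marrow HFD. No library passed 5 counts of any of the 3 genes. The unnumbered library is a glutamine column whose number pair is in no sample title.

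Cd3g and Gzmb each had 1 count in all of marrow, in HFD+Gln 10_12, and Cd8a had none. Cd4 had 2 counts over marrow HFD+Gln and 1 over marrow HFD, and Gzma had 4 counts over marrow HFD+Gln and 0 over marrow HFD. A floor of 3 counts is 0.0962 to 0.215 CPM in a marrow HFD+Gln library and 0.0790 to 0.149 CPM in a marrow HFD library, so a lower level was not detectable at this depth.

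Nkg7 and Klrd1 each had 1 marrow library far above the others. Nkg7 had 1858, 2, 1, 0 and 3 counts in marrow HFD+Gln and 4, 0, 1 and 1 counts in marrow HFD. Klrd1 had 0, 0, 0, 930 and 0 counts in marrow HFD+Gln and 2, 0, 1 and 0 counts in marrow HFD. The libraries differ: 4_6 had the Nkg7 counts with no Klrd1 count and 3 of Cd3d, and 18_20 had the Klrd1 counts with no Nkg7 count and 2 of Cd3d. At 80.0 CPM in marrow HFD+Gln 4_6, Nkg7 was above its highest adipose library, which was HFD 23_28 at 20.0 CPM. Ptprc was at 94 counts in 4_6 and 531 counts in 18_20.

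Some other T and NK list genes also reached 100 counts in a single marrow library. Of 98 listed genes in the tables, 89 reached 100 counts in at least 1 adipose library and 32 in all 9. In marrow 22 reached 100 counts in at least 1 library, 10 of them in exactly 1 and none in all 9. None of the 14 receptor complex and co-receptor genes reached 100 counts in any marrow library, and their summed level was 0.288 to 0.904 CPM in marrow HFD+Gln and 0.432 to 0.764 CPM in marrow HFD. No member passed the filter for the glutamine test in marrow, where edgeR called 0.132% of the 6041 genes tested. Of the wider lists 8 genes were tested there and none was called.

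Adipose exceeded marrow in most members with TMM factors, and the number of members called depended on the scaling of libraries, as given below. The fitted log2 fold change of adipose over marrow was 5.73 ± 0.790 for Cd3d (edgeR adjusted p = 5.91e-06), 5.40 ± 1.10 for Cd3e (adjusted p = 0.000410) and 6.01 ± 1.05 for Lck (adjusted p = 7.76e-05). It was 7.19 ± 1.78 for Cd3g (edgeR adjusted p = 0.00282), 8.43 ± 1.41 for Gzma (adjusted p = 7.87e-05) and 6.86 ± 1.84 for Gzmb (adjusted p = 0.00508). Cd4 was at 5.02 ± 1.61 (adjusted p = 0.0137), and at an adjusted p of 0.0520 without adipose HFD 5_11. In all, 7 of 9 members tested were called, all higher in adipose, where 51.7% of all genes tested were called and 40.5% were called and higher in adipose. The members passed the count filter mainly through their adipose counts, so this tally is no support for a difference of the group.

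Since these 7 members had 15 counts or fewer in all of marrow, ratios of pooled CPM are also given, with an exact interval for counting error only. The ratio of adipose over marrow was 191 for Cd3d (95% interval 116 to 342), 176 for Cd3e (105 to 323) and 192 for Lck (116 to 343). It was 380 for Gzma (148 to 1396) and 126 for Cd4 (43.1 to 614). Cd3g was at 473 (84.7 to 18716) and Gzmb at 438 (78.4 to 17317), each with 1 marrow count. As a share of adipose, the pooled marrow level was 0.523% for Cd3d, 0.567% for Cd3e and 0.521% for Lck. The median share was 0.411% over all genes with at least 1000 adipose counts and no marrow library at 100 counts, so such ratios are not particular to the members. The pooled level of Cd8a was at least 20.0-fold higher in adipose, with the floor of 3 counts taken over all marrow libraries. Its adipose counts were 53 in HFD+Gln 10_12, 54 in HFD+Gln 13_15 and 3 in HFD 1_3. The other adipose libraries had no count of it, like all of marrow, so the ratio does not hold library by library. Cd3d was the only member with all 9 adipose libraries above all 9 marrow libraries in CPM, which held for 16.0% of all genes tested.

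Nkg7 was at 0.92 ± 1.22 (log2, SE, adjusted p = 0.538 by edgeR) and Klrd1 at −0.66 ± 1.67 (adjusted p = 0.752), and single libraries set both values. Without marrow HFD+Gln 4_6, Nkg7 was at 4.94 (adjusted p = 0.000152), and without marrow HFD+Gln 18_20, Klrd1 was at 5.08 (adjusted p = 0.0648). The pooled ratio of adipose over marrow was 0.836 for Nkg7 and 118 without 4_6 (67.2 to 228), and 0.186 for Klrd1 and 50.1 without 18_20 (17.0 to 244).

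The scaling of libraries moved every value between tissues. TMM factors put the all-gene median log2 fold change at 1.43, relative log expression factors put it at −1.94, and upper-quartile factors at −0.89. With TMM factors 6150 genes were called higher in adipose and 1708 lower, against 2465 and 6524 with relative log expression factors and 3222 and 5144 with upper-quartile factors. Relative to that median, Cd3d was at 4.31, 3.93 and 3.56 under these scalings, and Lck at 4.59, 4.38 and 4.38. The number of members called was 7, 3 and 4. With relative log expression factors the members no longer called were Cd3e at 1.52 (adjusted p = 0.169), Cd3g at 5.43 (adjusted p = 0.0979), Cd4 (adjusted p = 0.438) and Gzmb at 5.13 (adjusted p = 0.134). With upper-quartile factors they were Cd3e at 1.94 (adjusted p = 0.125), Cd4 at 2.78 (adjusted p = 0.180) and Gzmb at 5.32 (adjusted p = 0.0632). Nkg7 changed sign with the scaling, at 0.92, −3.00 and −2.07, and relative to the median it was at −0.50, −1.07 and −1.18.

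Of the 72 other genes of the T and NK lists that were tested, 55 were called higher in adipose and 2 lower with TMM factors, with a median log2 fold change of 5.95, where 40.5% of all genes tested were called and higher in adipose. Most of these genes reached 100 counts in no marrow library and, like the members, could pass the count filter through adipose, so the tallies are a description, and they were not repeated under the other scalings. The tallies by list below include the members that each list holds, and over all lists 62 of 81 tested genes were called higher. All 12 tested genes of the receptor complex list were called higher. Trbc2 was at 6.65 ± 0.827, Cd247 at 6.91 ± 0.887 and Trac at 6.22 ± 0.950 (log2, SE). Receptor signalling had 11 of 13 called higher, transcription factors 7 of 11, NK receptors 9 of 13, homing and survival genes 11 of 14, and regulatory T cell and ILC2 genes 6 of 9. Of 9 granule genes, 6 were called higher. The 2 called lower over all lists were Srgn, the granule proteoglycan serglycin of many leukocytes, at −2.42 ± 0.837 (adjusted p = 0.0207), and Fcgr3, an Fc receptor of NK cells and myeloid cells, at −3.99 ± 1.38 (adjusted p = 0.0202). Neutrophil genes, whose summed level was 49.9 to 286 CPM in adipose and 2698 to 54233 CPM in marrow, were all 8 called lower in adipose.

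The marrow level of genes with trace counts there was also taken as a share of the adipose level. Over the 50 T and NK list genes with at least 1000 adipose counts in all and no marrow library at 100 counts, the pooled marrow CPM was a median of 0.393% of the adipose CPM, with quartiles of 0.311% and 0.463% and a range of 0.0810% to 0.992%. It was 0.523% for Cd3d, 0.567% for Cd3e, 0.521% for Lck and 0.263% for Gzma. Over all 3876 genes that met both limits the median was 0.411%, with quartiles of 0.306% and 0.534% and a range of 0% to 41.2%. The limit of 100 counts in marrow itself leaves out genes with more marrow counts. Each median lay within the quartiles of the other set, and what the share comes from was not tested.

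**Figure D5:**
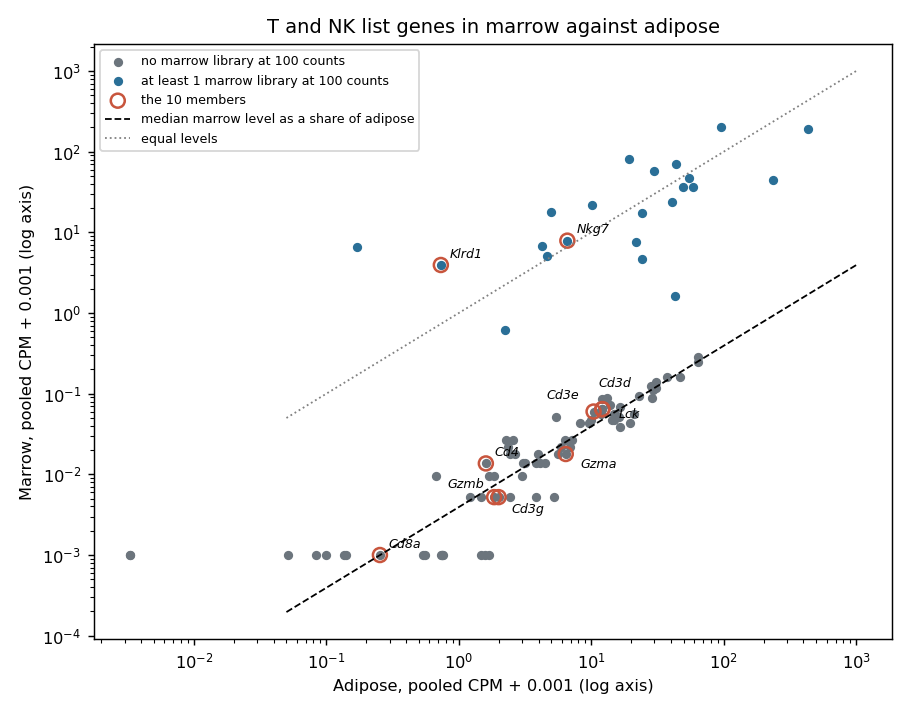
Pooled marrow level against pooled adipose level, both as CPM plus 0.001 on log axes, for each T and NK list gene (points), with the 10 members ringed. Genes with no marrow library at 100 counts mostly lie along the dashed line at 0.393% of the adipose level or, with no marrow count, at 0.001, and genes with at least 1 such library, Nkg7 and Klrd1 among them, lie above it. The line is the median of genes chosen for having no marrow library at 100 counts, so part of this separation follows from that choice.

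The glutamine effect in adipose minus that in marrow was tested in all 18 libraries. Nkg7 was the 1 member called, at −10.20 ± 2.87 (log2, SE, adjusted p = 0.0432 by edgeR), where 11.9% of all genes tested were called. The value was −2.06 (adjusted p = 0.497) without marrow HFD+Gln 4_6, and leaving out any 1 of the 9 adipose or 4 marrow HFD libraries took the adjusted p above 0.05 as well, to between 0.0642 and 0.0770. Without any 1 of the other 4 marrow HFD+Gln libraries the adjusted p was 0.0346 to 0.0359. Klrd1 was at −8.03 ± 3.43 (adjusted p = 0.121), and at 3.44 without marrow HFD+Gln 18_20. The other 7 members lay between −6.39 and 0.47, with edgeR adjusted p-values of 0.138 to 0.987.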

How the data were processed

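Bulk RNA (30 ng a library, read at the 3′ end, read 1 alone) was measured in 9 adipose and 9 marrow libraries, per the labels' protocols. FastQC 0.12.1, STAR 2.7.10b, HTSeq 0.11.3 and build GRCm38 are named per the submitters' processing notes. The deposited values are whole-number read counts per gene that the authors left without normalization as far as the values show. The sources used here do not give the annotation, the strand setting or what was done with duplicates, and intervals cover counting error only.

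Groups came from the labels, and 1 marrow column, called unnumbered, was placed by its arm alone. Each tissue was tested with edgeR 4.0.16 in R 4.3.3 (filterByExpr at a minimum count of 10, TMM factors, quasi-likelihood F test, two-sided, Benjamini-Hochberg over all genes tested, call at an adjusted p under 0.05). Tissues and the difference of glutamine effects were tested in 1 fit of 18 libraries and 4 groups. The SE is the absolute log2 fold change over the square root of F. CPM is relative to the unscaled library total. The tests were checked on simulated counts with 1 fixed setting of the spread between libraries for all genes. Changes were planted only in genes with over 100 expected counts, so the check does not cover members with trace counts or wide spread. For comparisons across tissues it gave both tissues the same makeup, so it does not cover their different makeup. Alternatives were other scalings, filters, DESeq2 1.42.0, limma 3.58.1 voom with quality weights, a replicate block and libraries left out.

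The members and lists were chosen with earlier results of these data known. Named were all 10 members and the 8 genes most like the members. For other genes the rule took those of each list that passed a test, at most 4 per list and comparison by smallest p. It also took the 2 most abundant of each list in adipose. Only some of the genes that this rule took are named in the text, so the single genes given are not a full account of it. Prf1, Gzmk, Ncr1, Cd8b1, Ptprc, Cd79a, Il7r, Tyrobp, Srgn and Fcgr3 were named after their values were seen where that rule did not name them. Positions come from GENCODE M21 and promoters from RefSeq, GRCm38.p6.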

Additional observations from a re-analysis of the deposited data

Results flagged for a closer look

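Lone values among the members were checked in 19 groups of 4 or 5 libraries. In 5 of them a library's gap to its nearest neighbour was large against the range of its group (Dixon's ratio at the 95% level). Every group checked had a library at 100 or more counts of the gene, which favours groups with a high library. The 95% level also assumes normally distributed values, and some groups held libraries with no count. The tally therefore cannot be compared with chance, and the flags are a description. Cd4 was at 6.08 CPM in adipose HFD+Gln 13_15. Gzmb was at 2.77 CPM in adipose HFD+Gln 25_27. Klrd1 was at 3.33 CPM in adipose HFD 1_3. In marrow HFD+Gln, Nkg7 was at 80.0 CPM in 4_6 and Klrd1 at 29.8 CPM in 18_20.

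The glutamine effect of Nkg7 in adipose minus that in marrow was −10.20 on the log2 scale (adjusted p = 0.0432 by edgeR), and the difference itself was tested. Without marrow HFD+Gln 4_6 it was −2.06 (adjusted p = 0.497). The call was also lost with relative log expression factors, upper-quartile factors, limma-voom and a replicate block, and without any 1 of the 9 adipose or 4 marrow HFD libraries.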

How the results depend on the processing

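For glutamine in adipose, no alternative called a member, and the genes called were 0 under all but DESeq2, which called 31. Among members not called, Lck was at 1.04 and Klrd1 at 0.58 with limma-voom, and Cd4 at −0.093 in the joint fit of both tissues. With 1 library left out, Cd4 ran between −1.03 and 2.54, Lck between −1.49 and 0.45 and Klrd1 between −1.92 and 2.10.

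For glutamine in marrow, where no member was tested, the 8 genes called became 0 with RLE factors (relative log expression), upper-quartile factors or the stricter filter, 1 with limma-voom, 202 with no filter, 727 with DESeq2, 3926 in the joint fit, and 0 to 19 with 1 library left out.

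For adipose against marrow, 7 members were called, against 3 with RLE factors, 4 with upper-quartile factors, 4 with the stricter filter, 3 with DESeq2, 1 with limma-voom, 3 without the 2 marrow libraries that held over 100 counts of a member, and 6 to 8 with 1 library left out. Limma-voom called 4463 genes, against 7858. Nkg7 was at −3.00 with RLE factors and −2.07 with upper-quartile factors. Klrd1 was at 3.59 without those 2 libraries and between −2.07 and 5.08 with 1 library left out. Cd3d was called under every alternative run.

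For the difference of glutamine effects, the 1 member called became 0 with RLE factors, upper-quartile factors, DESeq2 or limma-voom, without the 2 libraries above, and 0 to 1 with 1 library left out. Nkg7 had an adjusted p in 26 alternatives and Cd3d in 27, so a count of 0 can include a gene with no result. The 1811 genes called became 0 with RLE or upper-quartile factors, 3 with limma-voom, 1061 with DESeq2, 473 without those 2 libraries, and 0 to 2681 with 1 left out. Cd3e was at 0.63 with upper-quartile factors and 0.94 without those 2 libraries. Klrd1 was at 6.49 without them. With 1 library left out, Cd3d ran between −0.32 and 0.86, Cd3e between −1.32 and 0.22, Cd4 between −4.02 and 1.20 and Klrd1 between −9.01 and 3.44. Cd4 was at 2.19 with limma-voom and 0.31 without the 2 marrow libraries with the fewest genes. The cause of these shifts was not tested.

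Same-numbered libraries of the tissues did not deviate together (correlations of −0.00906 to 0.0302 over 8 pairs), so the numbers are not shown to pair them. With a replicate block, 8 members were called between tissues, Klrd1 was at 1.73, and 0 genes and 0 members were called for the difference.

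Alternatives that left out 2 marrow libraries were chosen after seeing the data. Cd8a stayed below 100 counts in every adipose library. In marrow every member stayed below 100 counts in every library, except Nkg7 in HFD+Gln 4_6 and Klrd1 in HFD+Gln 18_20. Whether depth set these low counts was not tested.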
